A study of Homo sapiens with 72 samples.

Results

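The gene starts described here carried a called H3K4me3 peak in Raji cells and in neither of the other lines of the study. A protein-coding gene was a member when an H3K4me3 peak lay within 1 kb of any of its annotated starts in at least 5 of the 6 Raji libraries and in none of the 6 REH and 6 NALM6 libraries, and 295 of 20033 genes met this rule, or 1.47%. Because the rule used H3K4me3 in all 18 libraries of that mark, the H3K4me3 levels are given as a description with no test between lines. The other marks were not used to choose the genes. The contrast of treated with untreated cells was not used directly, but the rule counted treated and untreated Raji libraries together. A start that gained or lost its H3K4me3 peak in every treated Raji replicate could therefore not be a member.

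The study profiled 3 human B cell lines by Cut&Tag, in which an antibody directs a transposase to chromatin carrying a histone mark. Raji is a Burkitt lymphoma line that carries Epstein-Barr virus, while REH and NALM6 are precursor B acute lymphoblastic leukemia lines. Each line was left untreated or grown overnight with 1 nM bryostatin, a protein kinase C agonist, and each of the 3 marks H3K4me2, H3K4me3 and H3K27me3 was measured in 3 replicates per group, which gave 54 libraries. Each disease type is represented here by few lines and Burkitt lymphoma by Raji alone, so line, disease type and virus status cannot be told apart, and the labels do not say that replicates were separate cultures, so that p-values then measure only the spread between these samples.

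H3K4me3 marks the starts of active or poised genes and is narrow around the start. H3K4me2 covers starts and also enhancers, and can be present where H3K4me3 is not. H3K27me3 is laid down by Polycomb repressive complexes over silent developmental and lineage genes. Mature B cells turn on receptors and costimulatory molecules that precursor B cells lack, and in the germinal centre they express a further set of genes.

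Among the cell type markers, all 8 B lineage genes had H3K4me3 in at least 5 Raji libraries, 5 of 8 in REH and 4 of 8 in NALM6. At that cut, 0 of 6 T cell, 0 of 4 NK cell, 0 of 5 myeloid and 0 of 3 erythroid markers had it in any line. Below the cut, the T cell marker CD247 had H3K4me3 in 4 REH and 4 NALM6 libraries. The myeloid marker ITGAM had it in 1 library of each, and CSF1R in 1 of REH. Depth, recovered from the steps of the coverage in 48 libraries, ran from 5.12 to 47.9 M reads with a median of 18.8 M, and was 13.5 to 47.9 M for H3K4me3 in Raji, 10.2 to 27.9 M in REH and 5.41 to 19.5 M in NALM6. The 6 libraries of NALM6 replicate 1 carried another scaling. The library labelled H3K27me3, Raji untreated replicate 2, stood apart: it had a peak at 88.8% of the starts with H3K4me3 in Raji, against 0.404 to 14.2% in the other 5 Raji H3K27me3 libraries, so H3K27me3 in Raji is given with and without it. In bulk libraries, fewer cells carrying a mark and less of the mark per cell cannot be told apart.

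The starts that carry the results differed in base composition, and 7 are shown as the 250 bases before the RefSeq start (GRCh38.p14), read 5′ to 3′ on the strand of the gene. The first 3 are shown for their CpG content, with CG in capitals: CDKN2A (chr9:21995325-21995574, minus strand), a start rich in CpG, and FCRLA (chr1:161706979-161707228, plus strand) and HLA-DQA1 (chr6:32637156-32637405, plus strand), starts with a single CG. The RefSeq promoters of these 3 genes, of which the windows are the first 250 bases, were overlapped by an H3K4me3 peak in 6 of 6 Raji libraries.
CDKN2A: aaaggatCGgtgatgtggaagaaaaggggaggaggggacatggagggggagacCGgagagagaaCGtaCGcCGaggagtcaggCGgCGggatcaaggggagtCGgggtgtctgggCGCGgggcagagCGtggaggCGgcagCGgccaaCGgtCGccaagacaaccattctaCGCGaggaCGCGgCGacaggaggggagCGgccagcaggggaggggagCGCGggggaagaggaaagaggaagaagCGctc
FCRLA: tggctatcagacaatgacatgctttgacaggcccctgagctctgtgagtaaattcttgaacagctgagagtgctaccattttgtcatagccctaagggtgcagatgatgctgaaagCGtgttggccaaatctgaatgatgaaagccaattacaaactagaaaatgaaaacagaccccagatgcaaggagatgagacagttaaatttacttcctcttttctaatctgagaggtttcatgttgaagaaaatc
HLA-DQA1: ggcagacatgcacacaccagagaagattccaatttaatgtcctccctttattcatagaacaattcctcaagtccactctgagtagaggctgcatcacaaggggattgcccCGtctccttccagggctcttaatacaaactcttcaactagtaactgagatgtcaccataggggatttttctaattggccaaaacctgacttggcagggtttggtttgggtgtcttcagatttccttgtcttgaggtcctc
The next 2 belong to BIRC3, an inhibitor of apoptosis (chr11:102317234-102317483, plus strand), and BATF, an AP-1 family transcription factor (chr14:75522219-75522468, plus strand). They are shown because they hold GGGNNTTTC, part of an NF-kB type motif, in capitals on either strand, beginning at -198 and -237 from the start.
BIRC3: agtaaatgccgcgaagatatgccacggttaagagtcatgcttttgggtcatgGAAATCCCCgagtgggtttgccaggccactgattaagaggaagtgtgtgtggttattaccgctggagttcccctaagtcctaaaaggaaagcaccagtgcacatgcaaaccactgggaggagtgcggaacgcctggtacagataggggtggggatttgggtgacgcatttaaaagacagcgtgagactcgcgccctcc
BATF: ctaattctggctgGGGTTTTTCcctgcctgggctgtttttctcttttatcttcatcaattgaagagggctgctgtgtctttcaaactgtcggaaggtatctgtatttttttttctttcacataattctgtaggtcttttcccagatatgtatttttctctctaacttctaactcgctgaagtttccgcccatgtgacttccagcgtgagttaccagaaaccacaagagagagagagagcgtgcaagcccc
SERPINA9, a protease inhibitor of germinal centre B cells (chr14:94476198-94476447, minus strand), is shown for the octamer ATGCAAAT, here on the opposite strand and in capitals, which occurred at -133 and -96. BCL2A1, a survival factor of the BCL2 family (chr15:79971197-79971446, minus strand), is shown for GAGGAAGT, a PU.1 type motif, in capitals at -179.
SERPINA9: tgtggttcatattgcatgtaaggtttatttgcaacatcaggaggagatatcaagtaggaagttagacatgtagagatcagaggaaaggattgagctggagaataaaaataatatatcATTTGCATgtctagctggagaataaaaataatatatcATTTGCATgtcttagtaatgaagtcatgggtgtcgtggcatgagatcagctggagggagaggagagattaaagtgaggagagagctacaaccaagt
BCL2A1: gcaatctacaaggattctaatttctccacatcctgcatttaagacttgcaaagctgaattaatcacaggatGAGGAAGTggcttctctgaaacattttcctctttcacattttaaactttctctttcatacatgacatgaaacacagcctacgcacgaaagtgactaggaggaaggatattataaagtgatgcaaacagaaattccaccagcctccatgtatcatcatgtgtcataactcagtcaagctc

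CDKN2A held 24 CG pairs in its window, a ratio of observed to expected CpG of 1.08, and FCRLA and HLA-DQA1 had ratios of 0.095 and 0.0775. RefSeq promoters were matched for 218 of the 295 genes, and 68 of these, or 31.2%, had a ratio under 0.4. The share was 25.4% over all protein-coding genes, 5.21% over starts with H3K4me3 in at least 5 of 6 libraries of every line and 55% over starts with no H3K4me3 peak in any library. The median ratio of the Raji starts was 0.658, against 0.742 over all genes and 0.866 at the starts marked in every line.

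Searched on both strands, GGGNNTTTC was found in 4.59% of the matched windows and in 4.3% of all windows of the same length. The 10 genes with it were BATF, BIRC3, CD86, CEND1, DTD1, HMSD, PLEK, SGPP2, SNX10 and WNT10A. ATGCAAAT was found in 0.917% against 1.66%, at SERPINA9 and BMPR1A. GAGGAAGT was found in 5.05% against 2.12%, and the E-box CACGTG in 5.96% against 7.85%. These shares are descriptions of letters and were not tested.

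H3K4me3 at the Raji starts was mostly weaker than at starts shared by the lines. A relative start coverage was used, in which the mean peak coverage around a gene's starts was divided by the library's median over the 4361 genes called in all 18 libraries of the mark. It ran from 0.012 to 3.90 with a median of 0.257 over the 295 genes, against a median of 0.868 at the starts marked in every line. The longest peak at a start had a median length of 2265 bp and a median height of 702 RPKM, against 2930 bp and 2213 RPKM at the shared starts.

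The highest relative coverage belonged to BMPR1A, a receptor of bone morphogenetic proteins, at 3.73, 3.15 and 3.85 in untreated and 4.10, 3.95 and 4.34 in bryostatin-treated Raji replicates. CHPF, a chondroitin synthase subunit, and TMEM198 start from the same stretch of chromosome 2 and had medians of 3.65 and 3.54. They share their H3K4me3 region and do not count as separate observations. IGLL5, which overlaps the immunoglobulin lambda locus, so that its signal cannot be assigned to it alone, had a median of 2.64.

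Next in order were RAB33A at 2.45, RUNX3 at 2.13, ODF3B at 2.02 and ZNF804A at 1.83. RUNX3 is a Runt transcription factor of mature lymphocytes, and its 6 values, 1.60 to 2.90, overlapped those of RAB33A, 2.23 to 3.04. CD27, a TNF receptor family member of germinal centre and memory B cells, had a lowest value of 1.10, a median of 1.74 and a highest of 2.05. The range of BIK, a BH3-only apoptosis inducer, was 1.20 to 1.96 and overlapped that of CD27. The 20 highest also included DTD1, HOXB4, SLAMF1, WNT10A, SYNGR3, A4GALT, ZNF35, PAWR and the costimulatory ligand CD80, with medians from 1.69 down to 1.21.

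The genes were grouped by 16 lists, and 46 of the 295 belonged to at least 1 of them. Of 39 mature B cell surface receptors, 17 were members, and of the list as a whole 24 had H3K4me3 in at least 5 Raji libraries, 3 in REH and 3 in NALM6. They included CCR7, the homing receptor for T cell zones of lymph nodes (median 1.06), the costimulatory ligands CD80 (1.21) and CD86 (0.356), TNFRSF13B, the receptor TACI (0.538), the Toll-like receptor homolog CD180 and its partner LY86 (0.594 and 0.477), and CR2, the complement receptor that Epstein-Barr virus uses for entry (0.146). The lowest of the list was FCER2, the low-affinity IgE receptor, with 0.037, 0.217 and 0.107 in untreated replicates and 0.012, 0.200 and 0 in treated replicates. The remaining members of the list were CD69, FCGR2B, FCRLA, IL21R, IL10RA, SIGLEC10, TLR10, LILRB1 and FCRL2, with medians from 0.742 down to 0.093. FCGR2B and its neighbour FCGR2C are near-identical copies, so that reads may be split between them.

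Germinal centre genes gave 6 of 30 members. CXCR5, the receptor that guides B cells into follicles, had values of 1.02, 1.16 and 0.926 in untreated and 1.23, 1.51 and 0.996 in treated replicates. IRF8, a transcription factor of the germinal centre, stood at 0.609 to 0.767 and SERPINA9 at 0.413 to 0.865. RGS13, a regulator of chemokine receptor signalling, was low, with a median of 0.128 and no peak in bryostatin replicate 3. Of the same list, 28 of 30 genes had H3K4me3 in at least 5 Raji libraries, 15 in REH, 12 in NALM6 and 11 in every line.

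Of 36 genes listed as responses to NF-kB or to the viral protein LMP1, 6 were members: PLEK (0.964), BIRC3 (0.950), the cytokine subunit EBI3 (0.773), IL10 (0.513), BCL2A1 (0.458) and the chemokine CCL22 (0.083). CCL22 varied most among these, from 0 in bryostatin replicate 3 to 0.463 in untreated replicate 2. The list of innate ligands and SLAM family lymphocyte receptors gave 4 of 22, SLAMF1 (1.44), CD48 (1.17), SLAMF6 (0.175) and CD84 (0.117). All 4 belong to the SLAM family, and the paper also names CD48 among potential NK cell targets. None of the listed ligands outside the SLAM family was a member. The class II antigen presentation list gave 3 of 14, HLA-DRB5 (0.644), HLA-DQA1 (0.339) and HLA-DOB (0.206). HLA-DRB5 has close copies and its value is uncertain.

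MS4A1, which encodes CD20, was the sole B lineage marker among the members, at 0.266, 0.267 and 0.285 in untreated and 0.327, 0.284 and 0.312 in treated replicates. JCHAIN, which joins antibody polymers, was the single member of 8 plasma cell regulators. The list of cell cycle inhibitors at 9p21 and their relatives gave 3 of 9, CDKN2A, CDKN2B and MTAP, and that of the type I interferon cluster 1 of 9, KLHL9, which lies between interferon genes and is not an interferon. The developmental list gave 4 of 54, among them HOXB4, HOXB7 and SOX5. None of 18 precursor B genes and none of 29 cancer testis genes was a member, and of the precursor list 12 had H3K4me3 in at least 5 REH libraries and 5 in Raji.

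**Figure D1:**
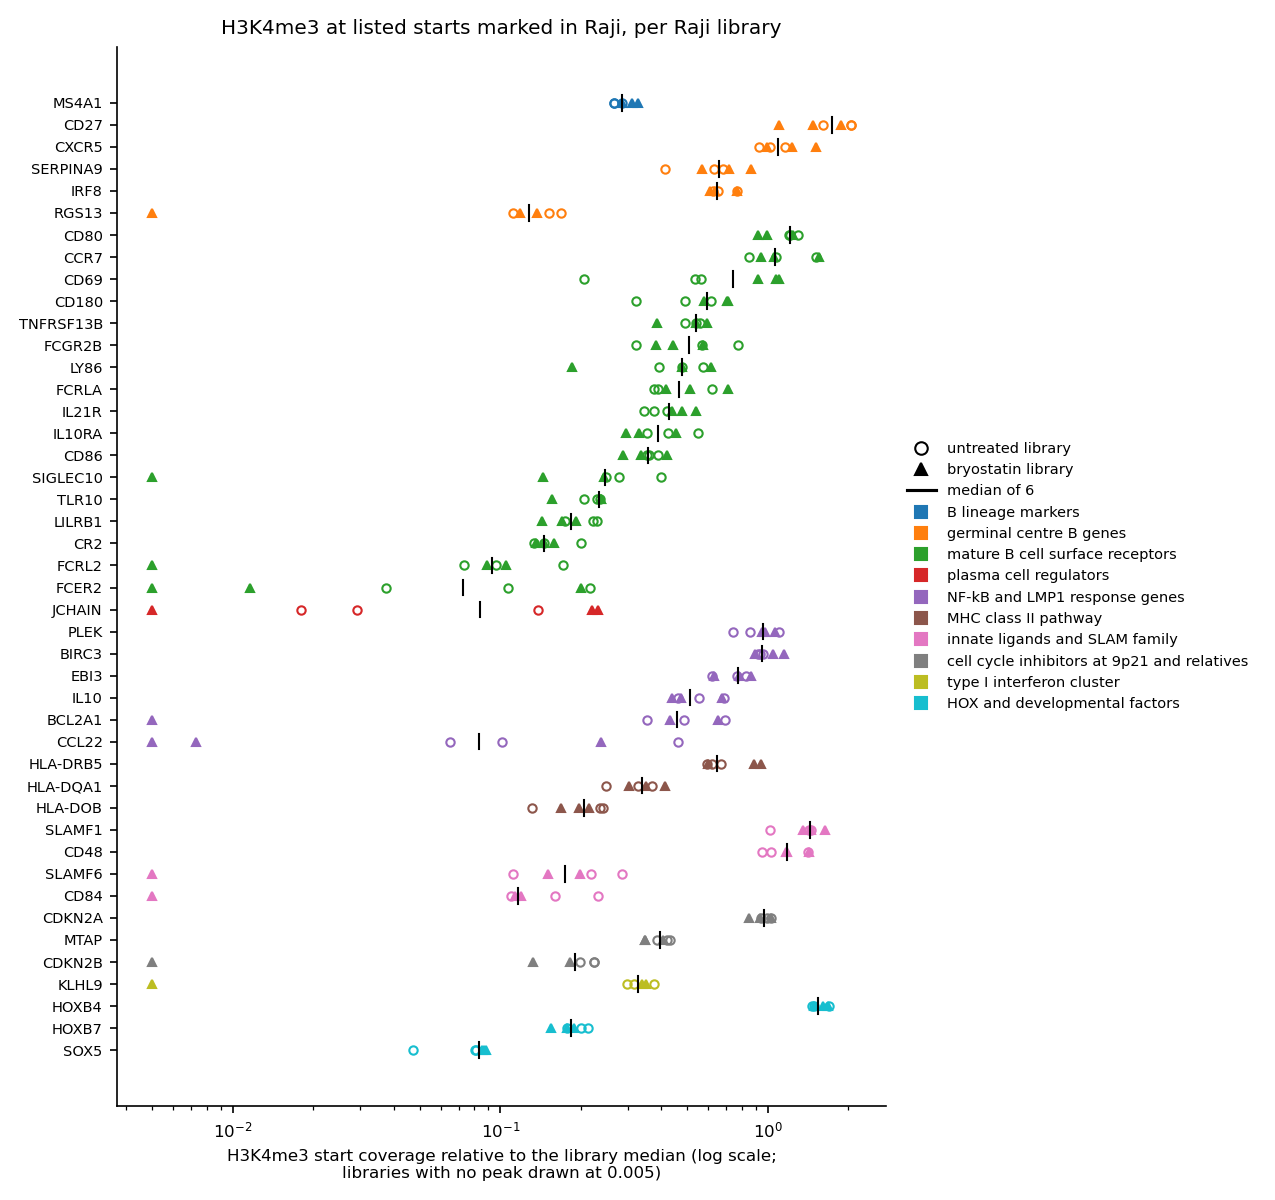
Relative H3K4me3 start coverage (log scale, no unit) in each of the 6 Raji libraries for listed genes, with circles for untreated and triangles for bryostatin libraries, bars for medians and colors for lists. Values span CD27, with a median of 1.74, to FCER2, with a median of 0.072, and the libraries with no peak, drawn at 0.005, are all bryostatin libraries.

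The threshold cut through a continuous range. The 78 genes with a peak in exactly 5 Raji libraries had a median relative coverage of 0.109, and the 41 genes left out at 4 of 6 a median of 0.0617. In 75 of the 78 the missing library was bryostatin replicate 3. A further 93 genes had at least 5 Raji libraries and a single peak among the 12 others, which came from REH untreated replicate 1 in 74 and NALM6 untreated replicate 3 in 17, with a median coverage of 0.231. Listed genes kept out in this way, or by peaks in only 4 Raji libraries, were CTSS, FCRL4, FCRL1, SLAMF7, RGS1, IL2RA, GPR183, MAEL, SPIB and TLR9.

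A missing peak is not absence of the mark, because the lowest height called differed between libraries, from 27.2 to 171 RPKM in Raji, 82.5 to 439 RPKM in REH and 97.4 to 888 RPKM in the NALM6 libraries on that scale. The median Raji height exceeded the 5th percentile of called heights of REH untreated replicate 1 for 276 of the 295 genes, but that of all 6 REH libraries for 84. Taking the same number of highest peaks from each library kept few of the 295 genes, as given at the end. How much of the membership comes from the depth of calling was not tested beyond such changes of the peak lists.

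The members lay on every chromosome, most often on chromosome 1 (39 of 2061 genes), and fell into 278 separate H3K4me3 regions in Raji. In 12 places 3 or more members lay within 500 kb of each other. They were the SLAM family cluster, FCGR2C, FCGR2B and FCRLA, IL10 with IL19 and PFKFB2, ANGPTL5, CEP126 and BIRC3, PIP4K2C, DTX3 and B4GALNT1, POGLUT2 with BIVM, the HOXB genes, the class II genes, PKIA, ZC2HC1A and IL7, MTAP, CDKN2A and CDKN2B, PHKA1 with the near-identical DMRTC1 and DMRTC1B, and TBC1D8B, NUP62CL and DNAAF6. BIVM also has a readthrough transcript, so its start is shared.

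Of the 12 places, the 9p21 cluster was the only one where neither REH nor NALM6 had a peak of any mark in any library. It holds CDKN2A, CDKN2B, which encodes an inhibitor of cyclin-dependent kinases, and MTAP, an enzyme of methionine salvage. CDKN2A encodes more than 1 protein from separate starts, and not all of them are such inhibitors. In Raji untreated replicate 1, H3K4me3 lay from -2.25 to 1.15 kb around the outer CDKN2A start, and next downstream from -193.68 to -191.48 kb. The values of CDKN2A thus belong to the outer start. CDKN2A had relative H3K4me3 coverage of 1.02, 0.943 and 0.995 in untreated and 1.03, 0.933 and 0.854 in treated Raji, MTAP a median of 0.396 and CDKN2B of 0.191. In REH, chr9:20663721-23219180, a stretch of 2.56 Mb with 23 protein-coding genes, held no peak in any of the 18 libraries, and it included FOCAD and KLHL9 as further members. In NALM6, the peak-free stretch was chr9:21783268-22146950 and held the 3 cell cycle and salvage genes.

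Raji had 3 to 6 H3K4me3 peaks, 4 to 12 H3K4me2 peaks and 0 to 73 H3K27me3 peaks per library in the REH stretch. NALM6 had 1 H3K4me3 peak in 1 library, no H3K4me2 peak and up to 2 H3K27me3 peaks there. Stretches of at least 2.5 Mb with no peak, centromeres included, numbered 51 in Raji, 42 in REH and 40 in NALM6. Whether the DNA of 9p21 is present in REH and NALM6 was not measured. Stretches of more than 100 kb that were peak-free in both REH and NALM6, with a peak at either end, held the starts of 41 members (13.9%), against 8.05% of all genes and 18.2% of the 8018 genes with no H3K4me3 peak in REH or NALM6.

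**Figure D2:**
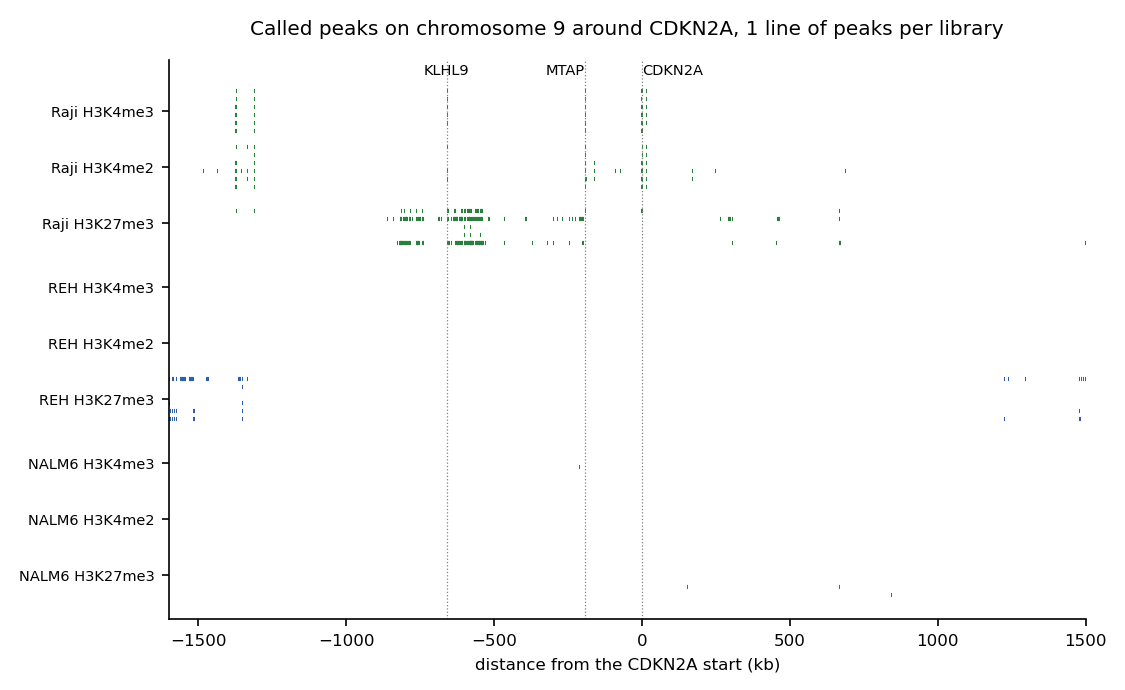
Called peaks on chromosome 9 by distance in kb from the CDKN2A start, with 1 line of ticks per library and 6 libraries per mark and cell line. The REH rows are empty except for H3K27me3 ticks towards both edges, and Raji H3K4me3 peaks stand at KLHL9, MTAP and CDKN2A.

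H3K4me2 accompanied H3K4me3 at these starts in Raji and was less often called there in the other lines. The share of the 295 genes with an H3K4me2 peak was 68.5 to 100% over the Raji libraries with a median of 93.1%, 12.9 to 30.5% in REH with a median of 20.2% and 2.37 to 14.9% in NALM6 with a median of 10%. Over all genes the shares were 44.5 to 57.8%, 49.3 to 62.4% and 27.5 to 52.0%. Over all genes with H3K4me3 in at least 5 Raji libraries, the Raji share was 82.6 to 99.9%. The 295 genes stood above that share only in bryostatin replicates 1 and 2, at 100% against 99.9% and 99.8%. They stood below it in the remaining Raji libraries, as in untreated replicate 2 with 68.5% against 82.6%. The Raji range did not overlap those of REH and NALM6, and the H3K4me2 libraries held 6.7 to 18.8 M reads in Raji, 13.7 to 22.8 M in REH and 8.24 to 23.4 M in NALM6.

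In at least 4 of 6 libraries, H3K4me2 was called at 266 genes in Raji, 56 in REH and 21 in NALM6, and 203 had no H3K4me2 peak in any REH library. Among all genes with no H3K4me3 in REH, 5.67% had H3K4me2 in at least 4 REH libraries, against 19.0% of the Raji starts, and in NALM6 the shares were 3.10% and 7.12%. These shares are given as descriptions, with no test.

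**Figure D3:**
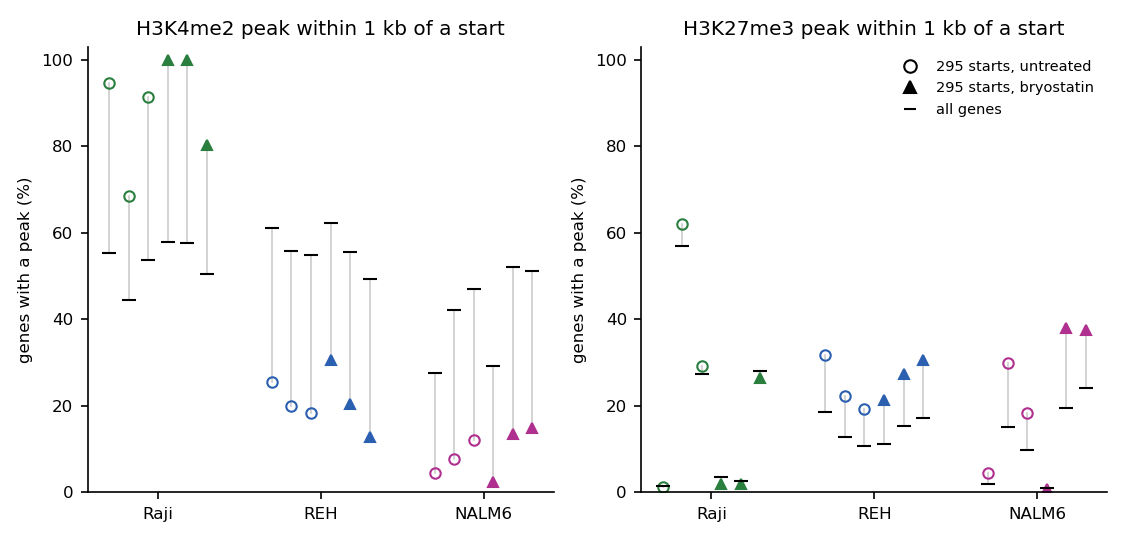
Share of genes (percent, vertical axis from 0) with an H3K4me2 peak (left) or an H3K27me3 peak (right) within 1 kb of a start, per library and grouped by line, with circles for untreated and triangles for bryostatin libraries at the 295 starts and dashes for all genes. H3K4me2 at the 295 starts is above the dash in the 6 Raji libraries and below it in the REH and NALM6 libraries.

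Between lines, H3K4me2 was compared by limma on the log2 of relative start coverage plus 0.1, over all genes with a peak in at least 3 of the 12 libraries, with a Benjamini-Hochberg adjusted p under 0.05 as the threshold. Against REH, 243 of the 285 members tested were higher in Raji and 5 were lower, where 24.2% of all 12757 genes tested were higher and 25% lower. The median log2 difference was 2.20 over the members and 0.05 over all genes. Of the 285, 219 had a peak in fewer than 3 REH libraries and so had to differ to be tested, and these counts are no support for the direction. Against NALM6, 238 were higher and 0 lower of 285, where 19.1% of all genes were higher and 9.22% lower, and 247 of the 285 had fewer than 3 NALM6 libraries.

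Where H3K4me2 was called in at least 4 libraries of both lines, the level still tended to be higher in Raji. Of the 56 such members, 41 (73.2%) were higher than in REH and 5 (8.93%) lower, with a median log2 difference of 1.05. Over all 9565 such genes, 25% were higher and 17.7% lower, with a median of 0.07. Against NALM6, 12 of 21 (57.1%) were higher and 0 lower with a median of 1.53, and over all 7957 such genes 7.7% were higher, 5.72% lower and the median was 0.40.

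The lists, members included, were counted over the same genes with at least 4 libraries of both lines, since the filter fixed the direction for many of the others. For example, 20 of 35 mature B cell surface receptors tested had a peak in fewer than 3 REH libraries, and 9 of 17 precursor B genes and 17 of 28 HOX and developmental genes in fewer than 3 Raji libraries. Against REH, 12 of 22 germinal centre genes were higher and 3 lower, 7 of 15 mature B cell surface receptors higher and 3 lower, 8 of 20 NF-kB and LMP1 response genes higher and 1 lower, and 4 of 8 class II genes higher and 0 lower. The SLAM family and innate ligand list had 3 of 12 higher and 5 lower. Each remaining list had at most 7 such genes, among them 6 precursor B genes with 1 higher and 3 lower. Members were chosen for H3K4me3 in Raji and not in the other lines, so the list counts are partly drawn from the rule. Among the receptors, CD86, CCR7, TNFRSF13B and IL21R were members called higher, and LILRB1 was a member called lower. Counts without the members are not given. Against NALM6, the counts were 6 higher and 1 lower of 23 germinal centre genes, 4 and 0 of 12 receptors, 7 and 0 of 17 NF-kB and LMP1 response genes, 1 and 0 of 8 class II genes and 1 and 0 of 10 in the SLAM family and innate ligand list.

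CD27 had relative H3K4me2 coverage of 4.59, 5.32 and 6.0 as lowest, median and highest Raji value, and 0, 0.132 and 0.248 in REH, with 5 of 6 REH libraries called. All Raji values stood above all REH values, and the fitted log2 difference was 4.61 (SE 0.26, limma adjusted p = 1.18e-07). CCR7 had 2.15, 2.95 and 3.40 in Raji against 0.481, 0.526 and 1.10 in REH, a log2 difference of 1.97 (SE 0.18, limma adjusted p = 5.76e-06), and 0, 0.957 and 1.15 in NALM6. TNFRSF13B stood at 0.737 to 1.61 in Raji and 0.255 to 0.380 in REH, a log2 difference of 1.73 (SE 0.14, limma adjusted p = 2.81e-06). Each of these receptors thus had the dimethyl mark without the trimethyl call in REH.

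CD86 and IL21R, the receptor of a follicular helper cytokine, were called in 5 of 6 REH libraries, with log2 differences of 2.12 (SE 0.38) and 2.23 (SE 0.31), limma adjusted p = 0.00117 and 0.000198. LY86, which pairs with CD180, did not pass the test: its Raji values were 2.08 to 2.76 and its REH values 0 to 1.77 with a median of 1.61, a log2 difference of 1.36 (SE 0.64, limma adjusted p = 0.105). BIRC3 differed little, with 0.591 to 1.21 in Raji and 0.574 to 0.743 in REH, overlapping ranges and a log2 difference of 0.32 (SE 0.11, limma adjusted p = 0.0381). SIGLEC10, an inhibitory lectin of B cells, had no H3K4me2 peak in REH but a median of 1.93 over NALM6, above the 1.41 of Raji, and did not pass against NALM6 (log2 difference 0.30, SE 0.71, limma adjusted p = 0.741).

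Other genes had no H3K4me2 peak in any REH or NALM6 library. CXCR5 had 0.755, 1.54 and 1.80 as lowest, median and highest Raji value, and CD80 1.50, 2.54 and 3.23. BMPR1A, HOXB4, CDKN2A, EBI3, CR2 and MS4A1 were at 0 in both leukemia lines as well. No fold is given here against groups at 0 in every library.

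The 5 members lower in Raji than in REH were ACKR3, PLEKHF1, LILRB1, NOS3 and BATF, and those outside the naming rule are named after their values were seen. ACKR3, a scavenging chemokine receptor, had 0 to 0.609 in Raji and 1.20 to 1.49 in REH without overlap, and a log2 difference of -2.09 (SE 0.57, limma adjusted p = 0.0124). PLEKHF1, an endosomal adaptor, had 0.749 to 0.995 against 1.41 to 2.21, a log2 difference of -0.96 (SE 0.10, limma adjusted p = 2.13e-05). BATF had overlapping ranges of 0.931 to 1.62 and 1.33 to 1.84, and a log2 difference of -0.27 (SE 0.09, limma adjusted p = 0.0355). NOS3, a nitric oxide synthase, had a log2 difference of -0.44 (SE 0.16). LILRB1, an inhibitory receptor for class I molecules, had a log2 difference of -0.45, which turned to 0.56 when the maximum signal was used.

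**Figure D4:**
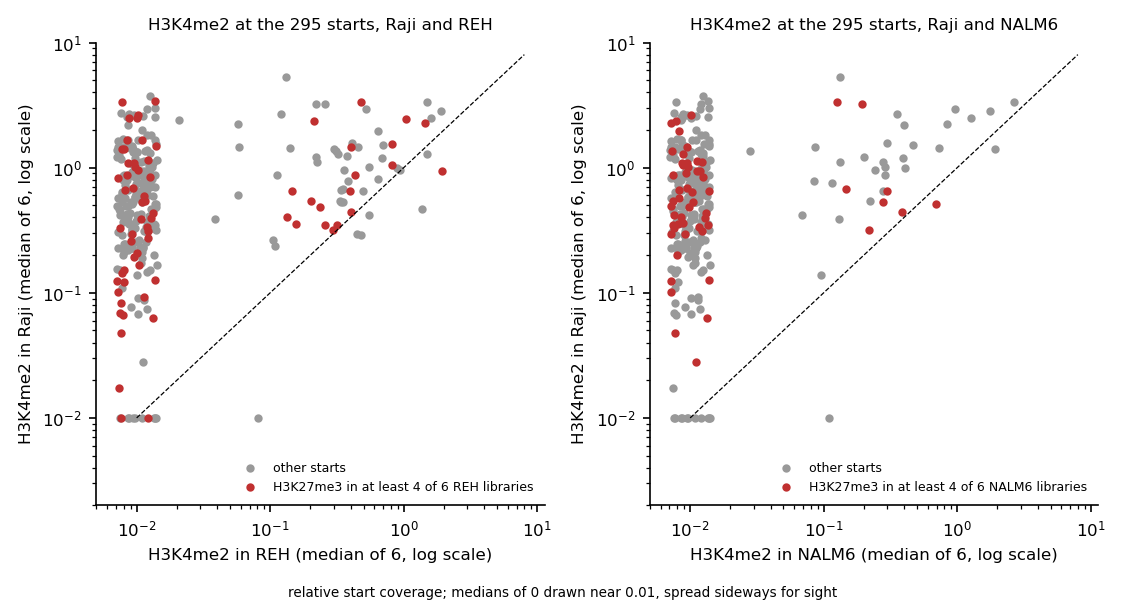
Median relative H3K4me2 start coverage over 6 libraries at the 295 starts (log scales), Raji on the vertical and REH (left) or NALM6 (right) on the horizontal axis, with starts called for H3K27me3 in at least 4 of 6 libraries of that line in red, medians of 0 drawn near 0.01 and a dashed line of equal level. Most points lie at the left edge, where the other line had no median coverage, and few lie below the dashed line.

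H3K27me3 was present at a part of these starts in the leukemia lines, at a rate near that of other genes without H3K4me3. In REH, 19.3 to 31.9% of the 295 genes had an H3K27me3 peak per library with a median of 24.9%, against 10.7 to 18.7% of all genes and 16.6 to 32.2% of genes with no H3K4me3 in any line. In at least 4 of 6 REH libraries it was called at 69 genes, or 23.4%, against 21.9% of genes with no H3K4me3 peak in REH. In NALM6 the share per library was 0.678 to 38.0%, against 0.963 to 24.2% of all genes. There, 55 genes, or 18.6%, had at least 4 libraries, against 14.6% of genes with no H3K4me3 peak in NALM6.

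By the marks called in at least 4 of 6 REH libraries, 37 of the 295 starts (12.5%) had H3K4me2 alone, 50 (16.9%) H3K27me3 alone and 19 (6.44%) both. A further 48 (16.3%) had either mark in fewer libraries, and 141 (47.8%) had neither in any library. Over the genes with no H3K4me3 peak in REH the shares were 3.34%, 19.6%, 2.33%, 15.3% and 59.5% in that order. Among the 19 with both were RUNX3, BIK, WNT10A, PRKCZ, CPNE5, SH3BP5 and PLEKHF1.

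The 10 starts with H3K27me3 in most leukemia libraries were SH3BP5 and ATP6V0A1, called in 6 REH and 6 NALM6 libraries, BIK, WNT10A, CPNE5, PLEKHF1 and PRKCZ in 6 and 5, and A4GALT, KCNN3 and PIP4K2C in 6 and 4. Here the relative coverage rested on only 18 genes called in every H3K27me3 library. BIK had 1.25, 1.51 and 2.02 as lowest, median and highest REH value and was called in Raji only in the library labelled untreated replicate 2, at 0.906. PIP4K2C, a phosphoinositide kinase, had 1.31, 1.47 and 1.74 in REH, and PRKCZ, an atypical protein kinase C, 0.759, 0.888 and 1.04. FCER2 had 0.310, 0.528 and 0.685 in REH and no H3K27me3 peak in any Raji library.

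In Raji itself, 1.36 to 62.0% of the 295 genes had an H3K27me3 peak per library, against 1.39 to 57.0% of all genes. Without the library labelled untreated replicate 2, the shares were 1.36 to 29.2% and 1.39 to 28.1%, so the members were near all genes. BMP7, TESC, SOX5 and TUBB3 were called in all 5 of the other Raji libraries, TENT5A in 4 and ST14 and RUNX1T1 in 3, beside their H3K4me3. Those outside the naming rule are named after their values were seen. SOX5, a transcription factor of the SRY family, had 0.263 to 0.531 in Raji and 0.0409 to 0.153 in REH.

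By limma, H3K27me3 was lower in Raji than in REH at 50 and higher at 5 of the 119 members tested, where 36.4% of all 4901 genes tested were lower and 7.02% higher. The median log2 difference was -0.53 over the members and -0.47 over all genes. Of the 119, 58 had a peak in fewer than 3 Raji libraries and 36 in fewer than 3 REH libraries, with 2 genes in both sets. Except for those 2, each reached the filter through the other line alone. The counts are no support for the direction. Among those lower were PIP4K2C with a log2 difference of -3.57 (SE 0.39), BIK with -3.51 (SE 0.50) and PRKCZ with -3.07 (SE 0.25). PIP4K2C and BIK each had a peak in 1 Raji library and PRKCZ in 2. They passed the filter only through REH, so their direction was fixed and the size of these differences depends on the pseudocount of 0.1. Of listed genes, SIGLEC10, HOXB7, SERPINA9 and EBI3 were lower, with log2 differences of -2.45, -1.90, -1.73 and -1.25, and with peaks in 2, 3, 1 and 1 Raji libraries. Except for HOXB7, these too passed the filter only through REH. FCER2 and CCL22 passed as well with no peak in any Raji library, and no fold is given for them.

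The 5 higher in Raji were SOX5 (log2 difference 1.25), TUBB3 (2.01), ST14, TESC and TENT5A, of which the last 3 had no peak in any REH library and are given no fold. Without the library labelled Raji untreated replicate 2, 57 were lower and 5 higher of 88 tested, where 51.7% of all genes were lower and 7.78% higher. Without Raji untreated replicate 1, which had a peak at 1.39% of all genes, 48 were lower and 35 higher of 119, where 36.4% of all genes were lower and 32.3% higher, so the number higher rests on that library among the members and over all genes alike. Fisher's exact test on libraries with a peak called 6 lower and 1 higher, where 4.61% of all genes were lower and 1.65% higher.

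Few of the tested starts passed the threshold for a change of H3K4me3 with bryostatin in Raji, and fewer without than with the replicate block described below. A start that did not pass is not shown to be unchanged. Starts that gained or lost the peak in every treated replicate were left out by the rule. The small number that passed is thus partly fixed by the choice of genes. The total signal of each H3K4me3 region, relative to the median region of the library, was compared by limma over the 9040 regions called in all 6 Raji libraries, which covered 221 of the 295 genes in 209 regions. Of these genes, 120 had a positive and 101 a negative log2 change, from -0.64 to 1.31 with a median of 0.03. Higher with bryostatin were 2 genes and lower 0, where 0.155% of all regions were higher and 0% lower.

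The pair was CLEC17A, a C-type lectin of germinal centre B cells, and CD69, an early activation marker of lymphocytes. CLEC17A had relative signals of 0.237, 0.343 and 0.278 in untreated and 0.634, 0.772 and 0.646 in treated replicates, so that all 3 treated values stood above all 3 untreated ones, and the log2 fold change was 1.27 (SE 0.17, limma adjusted p = 0.0279). CD69 had 0.412, 0.552 and 0.454 against 1.11, 0.946 and 0.878, also without overlap, and a log2 fold change of 1.05 (SE 0.15, limma adjusted p = 0.0279). Neither passed when the mean signal per base or the maximum was used in place of the total, or when any library other than untreated replicate 2 was left out. Without that library 4 members passed. The log2 fold changes stayed positive, at 1.15 for CLEC17A and 0.67 for CD69 with the mean signal, 1.30 and 0.68 with the maximum, and 1.14 to 1.41 and 0.96 to 1.17 with 1 library left out.

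The replicate numbers paired the H3K4me3 libraries of Raji, with correlations of deviations of 0.54, 0.48 and 0.53. With the replicate block, 7 members were higher and 3 lower at an adjusted p under 0.05, where 1.06% of all regions were higher and 0.398% lower. The 7 were CLEC17A, CD69, IL21R, SLC12A8, CD180, B4GALNT1 and RGS3, and the 3 were WNT5A, SYNPO and SYBU, the last 3 encoding a Wnt ligand, an actin-binding protein and a syntaxin-binding protein. IL21R had 1.69, 1.81 and 1.50 in untreated and 2.56, 2.78 and 2.37 in treated replicates, and CD180, a receptor of the Toll-like family, 0.712, 1.21 and 0.879 against 1.61, 1.70 and 1.43. WNT5A had 0.918, 1.21 and 1.04 against 0.618, 0.855 and 0.712. The treated values of IL21R and CD180 stood above, and those of WNT5A below, all untreated values. TENT5A, a poly(A) polymerase, had the third largest change, 1.05, and passed neither fit.

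**Figure D5:**
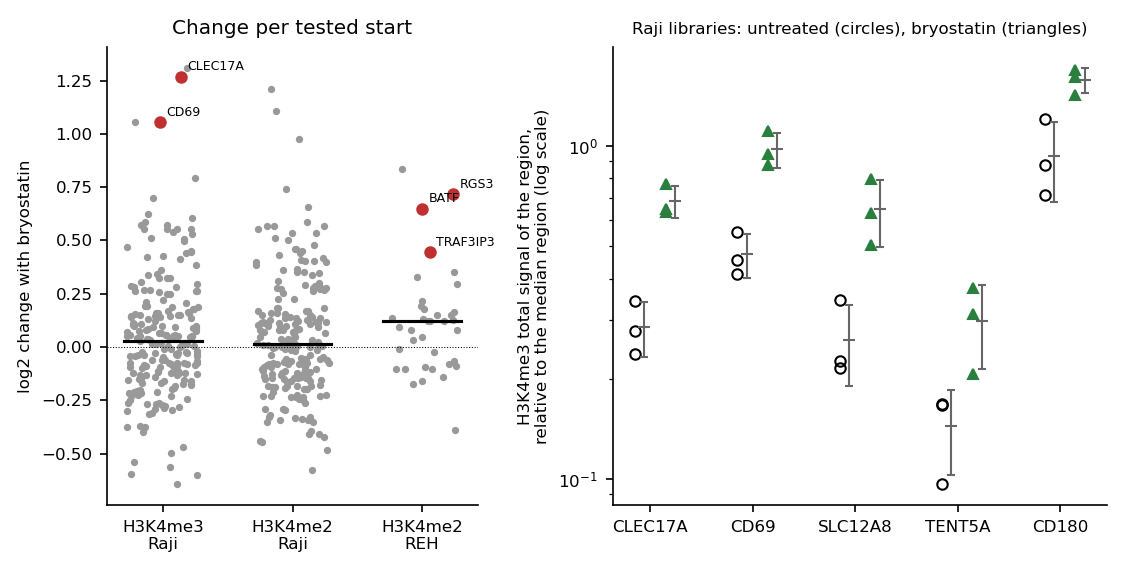
Left, log2 change with bryostatin of the total region signal for each tested gene among the 295, by mark and line, with bars at the medians and genes past the threshold in red. Right, relative H3K4me3 signal (log scale) of the 5 genes with the largest changes in Raji, with circles for 3 untreated and triangles for 3 treated libraries and bars for the mean ± SD, where CLEC17A, CD69, SLC12A8, TENT5A and CD180 have no overlap between groups.

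H3K4me2 at these starts did not pass the test with bryostatin in Raji. By limma, 0 of 213 genes in 202 regions passed, and 0% of all 9316 regions were higher or lower. Among the largest changes were those of PLEK (1.21), a protein kinase C substrate, SLC12A8 (1.11), BIRC3 (0.97) and CR2 (0.66). PLEK had 2.72, 1.07 and 3.13 in untreated and 5.32, 6.78 and 3.11 in treated replicates, and BIRC3 1.20, 0.506 and 1.95 against 2.66, 1.95 and 1.73, both with overlap. The untreated H3K4me2 libraries of Raji were shallower, at 6.7 to 13.9 M reads against 15.6 to 18.8 M, and replicate 2, the lowest of each set, was the shallowest.

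In REH, H3K4me2 regions called in all 6 libraries covered 37 of the 295 genes. Of these, 3 were higher with bryostatin and 0 lower, where 1.42% of all 10791 regions were higher and 0.0371% lower. RGS3, a regulator of G protein signalling, had 1.70, 1.67 and 1.71 in untreated and 2.94, 2.88 and 2.56 in treated replicates, without overlap, and a log2 fold change of 0.72 (SE 0.08, limma adjusted p = 0.000444). BATF had 0.785, 0.845 and 0.553 against 1.18, 1.17 and 1.03, a log2 fold change of 0.65 (SE 0.14, limma adjusted p = 0.0369). TRAF3IP3, an adaptor of TRAF3, had 0.843, 0.727 and 0.727 against 0.990, 1.09 and 1.04, a log2 fold change of 0.45 (SE 0.10, limma adjusted p = 0.0443).

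Fitted with the replicate block, for which the REH correlations were 0.13, 0.20 and 0.21, CCR7 was higher as well and TUBB3 lower, where 2.47% of all regions were higher and 0.361% lower. CCR7 had 0.471, 0.546 and 0.468 in untreated and 1.08, 1.15 and 0.548 in treated replicates, a log2 change of 0.83. Measured as mean signal per base, the change of CCR7 was -0.10, while the mean length of its region went from 2210 to 4707 bp, and with the maximum signal it was 0.34. Of RGS3, BATF and TRAF3IP3, none passed with the mean signal per base, and 1 passed with the maximum signal, where BATF changed by -0.009. Without untreated replicate 3, or without bryostatin replicate 1 or 2, 1 passed.

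The difference between the lines in H3K4me2 response was tested as an interaction over start coverage. Of 285 members, 0 were called, and 0.0157% of all genes were higher in Raji and 0.00784% lower. RGS3 had the change of Raji minus that of REH at -0.75 (SE 0.13, limma adjusted p = 0.345). Bryostatin was not fitted in NALM6, where the replicate 1 libraries carried another scaling.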

How the data were processed

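Cut&Tag libraries of 3 marks from Raji, REH and NALM6 cells, untreated or given 1 nM bryostatin, were analysed from the peak lists of the authors, 1 per library. Per the labels, the authors trimmed reads with Trim Galore, aligned them to hg38 with Bowtie2 and called peaks with SEACR (stringent), and their notes also name bcl2fastq and DESeq2. The deposited signal values are the total and the maximum coverage of each peak, in RPKM over 10 bp bins in 48 libraries, and on another scale, not given in the sources used here, in 6. IgG libraries were not used here.

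Starts were those of GENCODE 44 protein-coding transcripts. Start coverage was divided by the library median over genes called in every library of a mark, and tests were run with limma 3.58.1 in R 4.3.3 (eBayes with trend, Benjamini-Hochberg at 0.05), and checked on simulated data. H3K4me3 regions were merged at 1 bp of overlap. Named genes were those in a list, the 20 highest for H3K4me3, the 10 with most H3K27me3, the 5 largest bryostatin changes per mark, those past the threshold with bryostatin, and members of neighbourhoods. The members and lists were chosen with earlier results of these data known. Alternatives covered the pseudocount, filter, signal measure, centring, window, replicate block, Fisher's exact test and each library left out. Python 3.11.15, pandas 2.3.3 and numpy 2.4.6 were used for tables and matplotlib 3.10.9 for figures. Some genes that met the naming rule are not reported here.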

Additional observations from a re-analysis of the deposited data

How the results depend on the processing

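The set of genes depended on the peak threshold: taking the same number of highest peaks from each library gave 180 genes, 26 of them shared, and a window of 500 bp gave 289. By Fisher's exact test on libraries with a peak, H3K4me2 was higher than in REH at 123 and lower at 0. It was higher than in NALM6 at 158. Of the 285 tested each time, 219 and 247 had a peak in fewer than 3 libraries of the other line. These counts, given without the share over all genes, are therefore no support for the direction. By the same test, H3K27me3 was higher at 1 and lower at 6 of 119, where 1.65% of all genes were higher and 4.61% lower. Without replicate 1 of NALM6, 1 start was lower than in NALM6. With peaks in at least 6 of 12 libraries, H3K27me3 was higher at 3 and lower at 50 of 67. There, 7.26% of all genes were higher and 66.7% lower. Without centring, H3K4me2 calls over all genes were 1681 higher and 3824 lower (30.5% higher) than in REH, against 3081 and 3187 (49.2%), and bryostatin log2 changes moved by 0.26 for H3K4me3 and 0.24 for H3K4me2 in Raji.

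Under bryostatin, H3K4me3 calls in Raji were 0 with the mean signal per base, the maximum signal, no trend and start coverage, and 7 higher and 3 lower with the replicate block. In REH, H3K4me2 calls were 0 with the mean signal per base, 1 with the maximum signal and 1 with start coverage, and the replicate block gave 1 lower. The replicate block changed no other call count by over 1.5 times, and numbers did not pair Raji H3K4me2 libraries (0.42, -0.25 and -0.31). With 1 library left out, H3K4me2 against REH was higher at 217 to 257 and lower at 3 to 5, against NALM6 220 to 263 and 0 to 1, H3K27me3 higher at 4 to 35 and lower at 44 to 57, bryostatin H3K4me3 higher at 0 to 4, REH H3K4me2 higher at 1 to 4, and the interaction 0 to 3 higher and 0 to 1 lower. Those ranges are given without the share over all genes and describe only how far the counts moved. With the maximum signal, LILRB1 turned to 0.556 between lines and BATF to -0.009 in REH. Of the values for single genes, 204 kept their call, 62 lost it and these 2 reversed. The cause was not tested. Shallow libraries and differing lowest peak heights limit what a missing peak can say.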
